A study of Mus musculus with 12 samples.

Results

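Transcript levels of 9 genes of phosphatidylcholine synthesis and lysolipid handling, Chka, Chkb, Pcyt1a, Pcyt2, Pemt, Chpt1, Cept1, Lpcat3 and Mfsd2a, were followed in mouse liver through poly(A) RNA sequencing. They were picked by name from the 48440 genes of each deposited table, and all 9 had enough reads to be tested. The choice was made with earlier results for these livers known, among them those for Chka, so counts and p-values describe the genes and are not independent evidence. The livers came from male C57BL/6 mice, labelled as 8 weeks of age, kept on chow in 12 h of light and 12 h of dark. Wild-type mice (WT) and transgenic mice overexpressing E4BP4 in the liver (TG) were sampled at ZT2 and at ZT14, that is 2 h after lights on and 2 h after lights off, with 3 libraries in each of the 4 groups. E4BP4, the product of Nfil3, is a transcriptional repressor that binds D-box elements and is tied to the circadian clock. The promoter that drives the transgene is not given in the sources used here. No label states that the libraries of a group came from separate animals, so p-values measure the spread between these samples, which may be technical in part.

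Phosphatidylcholine is the main phospholipid of cell membranes, of bile and of the surface of lipoprotein particles. Liver makes it from choline through the CDP-choline branch of the Kennedy pathway, in which choline is phosphorylated, activated with CTP and joined to diacylglycerol, and also by methylating phosphatidylethanolamine, a route largely particular to liver. Its fatty acids are then exchanged through lysophosphatidylcholine in the Lands cycle, and lysophosphatidylcholine can be taken up from the blood.

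The RefSeq promoter windows (GRCm38.p6, 250 bases before to 50 after a start) of Chka, Lpcat3 and Mfsd2a are shown because these genes carry the differences described below. They lie at chr19:3851523-3851822 on the plus strand, chr6:124662854-124663153 on the plus strand and chr4:122961139-122961438 on the minus strand. Capitals mark the GC-box GGGCGG on either strand in Chka and Lpcat3, and the nuclear receptor core motif AGGTCA in Mfsd2a.
Chka: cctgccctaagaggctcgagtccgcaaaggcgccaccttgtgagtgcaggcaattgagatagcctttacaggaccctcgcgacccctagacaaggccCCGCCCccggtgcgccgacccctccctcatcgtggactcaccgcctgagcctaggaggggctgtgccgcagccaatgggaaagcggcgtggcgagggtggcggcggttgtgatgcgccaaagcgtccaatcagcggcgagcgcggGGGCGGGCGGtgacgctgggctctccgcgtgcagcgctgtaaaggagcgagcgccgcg
Lpcat3: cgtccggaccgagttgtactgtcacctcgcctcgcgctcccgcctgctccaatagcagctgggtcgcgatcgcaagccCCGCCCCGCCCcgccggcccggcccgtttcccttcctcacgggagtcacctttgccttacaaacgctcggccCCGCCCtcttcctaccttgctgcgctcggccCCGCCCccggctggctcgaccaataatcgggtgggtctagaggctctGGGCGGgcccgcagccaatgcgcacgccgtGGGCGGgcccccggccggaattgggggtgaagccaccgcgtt
Mfsd2a: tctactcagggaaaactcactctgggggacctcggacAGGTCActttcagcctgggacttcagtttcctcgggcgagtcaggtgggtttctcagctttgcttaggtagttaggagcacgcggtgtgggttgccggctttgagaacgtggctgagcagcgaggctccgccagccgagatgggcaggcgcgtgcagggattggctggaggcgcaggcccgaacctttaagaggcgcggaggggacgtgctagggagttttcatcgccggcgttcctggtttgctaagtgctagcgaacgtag

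Of the 9 genes, 8 had entries in the RefSeq table, with 13 windows between them. The D-box letters searched, TTATGTAA or TTACGTAA on both strands, were in 0 of the 13 windows and in 1.056% of all 32851 windows. The E-box CACGTG, the site of the CLOCK and BMAL1 pair, was in 0 of the 13 and in 7.15% of all. GGGCGG, also read on both strands, was in 8 of the 13, in 6 genes, against 35.658% of all windows. Overlapping windows of Cept1 and of Pcyt1a share some of these letters, so the 8 are not separate. The 8 windows held 51.7% to 75.3% G or C, against a median of 52.7% over all windows. AGGTCA was in 2 of the 13, against 16.255% of all: in Mfsd2a its first base lay 213 bases before the start, and the other match was in 1 of the 3 Pcyt1a windows. No search overlapped another in its letters. A match here is a description of letters, and a missing match says only that these letters are not in these windows.

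Depth was 16035121 to 23981021 gene reads per library, of which 9.79% to 11.9% lay in introns. Nfil3 was at 29.4 to 48.8 CPM (reads scaled to the library's total) in the 3 WT libraries at ZT2 against 62.6 to 71.1 in TG, and at 24.6 to 40.4 against 63.8 to 93.9 at ZT14, so every TG library lay above every WT library at its time. The summed CPM of 5 hepatocyte genes was 59196 to 75392 over the 12 libraries and all 5 were detected. Of 4 adipocyte genes, 0 exceeded 1 CPM in any library. On the second principal component, which held 16.5% of the variance, replicate 2 of TG at ZT2 stood at -30.8 and replicate 3 of TG at ZT14 at -33.2, while the other 10 libraries were above 0, at up to 12.1. Results that rest on these libraries are given with and without them. In these bulk libraries, fewer cells of a type and less RNA per cell cannot be told apart.

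Across the 9 genes, time of day was accompanied by more called differences than genotype. With both genotypes averaged, 4 genes were higher at ZT14 (Pcyt1a, Pcyt2, Chpt1 and Mfsd2a), 3 were lower (Chka, Chkb and Cept1), and Pemt and Lpcat3 were not called, by edgeR's quasi-likelihood test at an adjusted p below 0.05. Over all 15244 genes tested, 12% were called higher and 10.4% lower in that comparison. The median log2 difference of the 9 genes was 0.07 and that of all genes 0.00113. In WT alone 2 of the 9 were called higher at ZT14 and 1 lower, beside 4.85% and 4.32% of all genes. In TG alone 1 was called higher and 3 lower, beside 6.7% and 5.52%. Groups did not overlap for 5 genes higher and 2 lower at ZT14 in WT, beside 15.3% and 14% of all genes, and for 2 higher and 4 lower in TG, beside 15.8% and 14.3%. Markers of other cells also moved with time: the summed CPM of 6 endothelial genes, all 6 detected, was 260 to 287 at ZT2 and 237 to 261 at ZT14 over both genotypes, with no overlap within a genotype. That of 4 pancreas genes, of which 1 exceeded 1 CPM, was 11.1 to 24.4 and 4.89 to 11.7, again with no overlap within a genotype. That of 4 neutrophil genes, of which 2 exceeded 1 CPM, was 1.01 to 2.95 at ZT2 and 0.171 to 0.546 at ZT14 in WT, without overlap, and 0.428 to 1.85 and 0.313 to 1.47 in TG. That of 5 erythroid genes was 277 to 350 at ZT2 and 238 to 270 at ZT14 in WT, without overlap, while the TG groups overlapped. The cholangiocyte, macrophage, stellate cell and lymphocyte sums overlapped between the times in each genotype. The part of any of these cells in the time differences was not tested.

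For genotype, 1 of the 9, Chka, was called higher in TG at ZT2, beside 0.0525% of all genes, and 0 were called at ZT14, where 0.0853% of all genes were. At ZT2, 2 of the 9 had an unadjusted p below 0.05 by edgeR (7.56% of all genes), DESeq2 called 1 and limma-voom 0. At ZT14, 1 of the 9 had an unadjusted p below 0.05 (6.91% of all genes), DESeq2 called 1 and limma-voom 0. Averaged over both times 0 were called (0.144% of all genes), with 1 at an unadjusted p below 0.05 (8.82%). There DESeq2 called 1 and limma-voom 0. The medians for genotype were 0.03 at ZT2 and -0.09 at ZT14, against -0.00303 and 0.00748 over all genes. The interaction asks whether the time difference was unlike in TG and WT, as TG minus WT. For it 0 of 9 were called (0.00656% of all genes), with 2 at an unadjusted p below 0.05 (5.98%), 2 called by DESeq2 and 0 by limma-voom. The share of all genes called by DESeq2 or limma-voom is not given here. The comparisons share libraries, so their counts are not independent of each other.

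**Figure D1:**
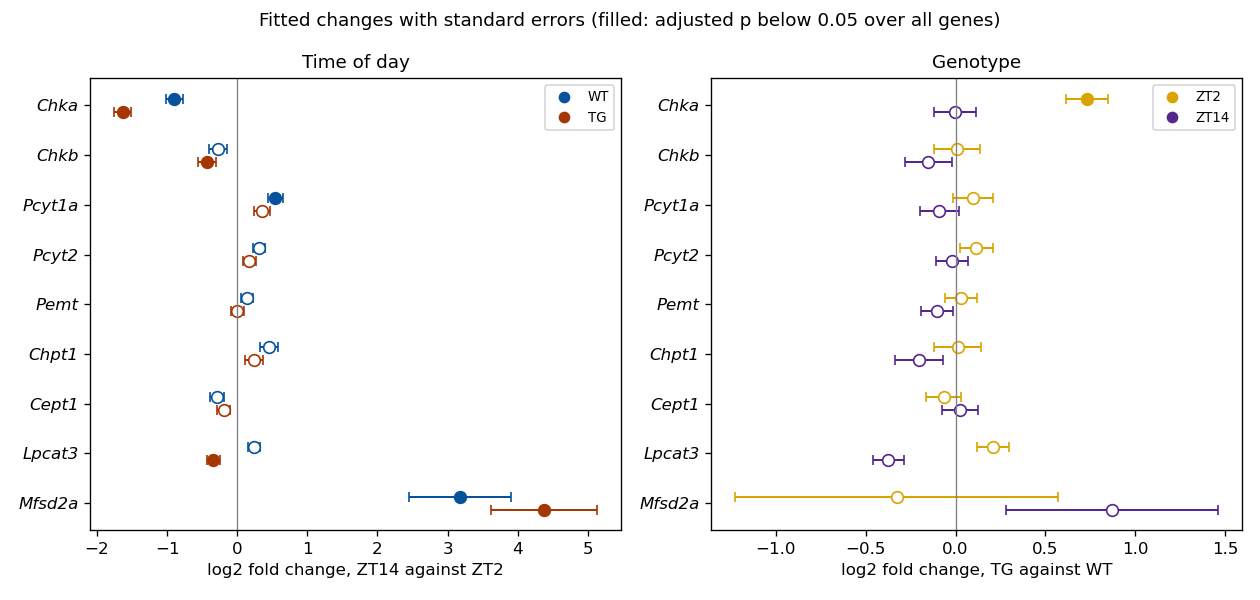
Fitted log2 differences of the 9 genes on the horizontal axis, for time in WT and TG (left) and for genotype at ZT2 and ZT14 (right), with bars of 1 standard error and filled points where the adjusted p was below 0.05. On the left Mfsd2a stands apart at 3.18 and 4.37 and Chka lies lowest at -0.90 and -1.63, and on the right Chka at ZT2 is the filled point.

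Choline kinase takes the initial step of the CDP-choline route, and mouse has a pair of genes for it, Chka and Chkb. Chka (ENSMUSG00000024843, chr19:3851773-3894369 in GRCm38, plus strand) was higher at ZT2 than at ZT14 and, at ZT2, higher in TG livers. In WT at ZT2 its level was 109, 119 and 127 CPM, and in TG at ZT2 it was 174, 228 and 189 CPM. In WT at ZT14 it was 60.3, 64.5 and 65.8 CPM, and in TG at ZT14 it was 53.8, 68.5 and 67.8 CPM. All TG libraries lay above all WT libraries at ZT2, as for 6.25% of all genes, the genotypes overlapped at ZT14, and every library at ZT14 lay below every library at ZT2. At ZT2 Chka was 1.66-fold higher in TG (log2 0.73, SE 0.12, adjusted p = 0.0495, n = 3 and 3). At ZT14 the log2 difference was -0.0028 (SE 0.12, adjusted p = 0.998), with an interval of 2 SE from -0.24 to 0.23.

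The ZT2 call for Chka was at the edge of the threshold. It was lost on leaving out any library but TG at ZT14 replicate 1, with log2 differences of 0.62 to 0.81 and adjusted p-values of 0.0535 to 0.308 among the 11 lost calls. Without both libraries that stood apart the log2 difference was 0.62 (adjusted p = 0.164). The highest Chka value, 228 CPM, came from 1 of them. The call was also lost with library size alone (adjusted p = 0.0761), with a filter of 1 CPM (0.0515), in limma-voom (0.0505), on exon reads (0.0748) and in a fit of the 6 ZT2 libraries (0.171). DESeq2 on all libraries kept it (log2 0.73, adjusted p = 9.98e-06). The summed CPM of 6 stellate cell genes, all 6 detected, was 154 to 208 in WT and 204 to 272 in TG at ZT2, and its part in the Chka difference was not tested.

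Between ZT2 and ZT14 Chka fell in both genotypes. It was 1.86-fold lower at ZT14 in WT (log2 -0.90, SE 0.12, adjusted p = 0.000547) and 3.11-fold lower in TG (log2 -1.63, SE 0.12, adjusted p = 5.95e-06), and every alternative run on total gene reads, and the fit of exon reads, kept both calls. On intron reads the WT difference was -0.72 (adjusted p = 0.0785). The interaction was -0.74 (SE 0.17, adjusted p = 0.48) by edgeR, at rank 22 of 15244 genes, and DESeq2 gave an adjusted p of 0.0271. A larger fall in TG was therefore called by DESeq2 and not by edgeR.

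Chka lies on chromosome 19, which also holds 7 genes called for genotype at ZT2 or ZT14. These 7 were 2.93 to 3.06 Mb away, Rps6ka4 being the nearest. Of 54 tested genes within 1 Mb of Chka, 0 were called for genotype besides Chka itself, and of the 120 tested genes between Chka and the nearest called gene, 0 were called. Over all genes 0.0525% were called higher in TG at ZT2 and 0.0853% in either direction at ZT14. The counts of 0 cover either direction at both times, and the share in either direction at ZT2 is not given here. Beside shares this small, counts of 0 among this many genes are unremarkable. Chka shares 647 bases with Gm16066 on the other strand, which had 290 to 501 reads, and whether counting used strand is not given in the sources used here.

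Chkb (ENSMUSG00000022617, chr15:89416405-89429908, minus strand), the other choline kinase, which also acts on ethanolamine, varied less. Its CPM was 28.5, 36.8 and 39.0 in WT and 35.7, 33.0 and 35.9 in TG at ZT2, then 25.9, 27.8 and 32.1 in WT and 23.2, 29.5 and 24.6 in TG at ZT14. The time groups overlapped in WT and not in TG. Averaged over genotypes Chkb was lower at ZT14 (log2 -0.36, SE 0.09, adjusted p = 0.0134). In TG alone the difference was -0.44 (SE 0.13, adjusted p = 0.044), and it lost its call in 8 of the 12 fits that each left out 1 library, with adjusted p-values of 0.0515 to 0.144. The TG call for Chkb was also lost without both libraries that stood apart (log2 -0.46, adjusted p = 0.127) and with library size alone (adjusted p = 0.068). For genotype the intervals of 2 SE ran from -0.25 to 0.26 at ZT2 and from -0.41 to 0.11 at ZT14. Chkb shares 9459 bases with Cpt1b on the same strand, which had 0 to 6 reads, and 78.2% to 87.8% of Chkb reads were uniquely mapped.

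The balance of the choline kinases shifted with time. The ratio of Chka to Chkb in deposited TPM, a level per length, was 1.07 to 1.32 in WT and 1.71 to 2.29 in TG at ZT2, and 0.727 to 0.759 in WT and 0.719 to 0.894 in TG at ZT14. The ratios at ZT2 did not overlap those at ZT14 in either genotype. Which kinase is higher at ZT14 depends on the lengths behind TPM, 12024 exon bases for Chka and 5805 for Chkb, while the change of the ratio with time does not.

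**Figure D2:**
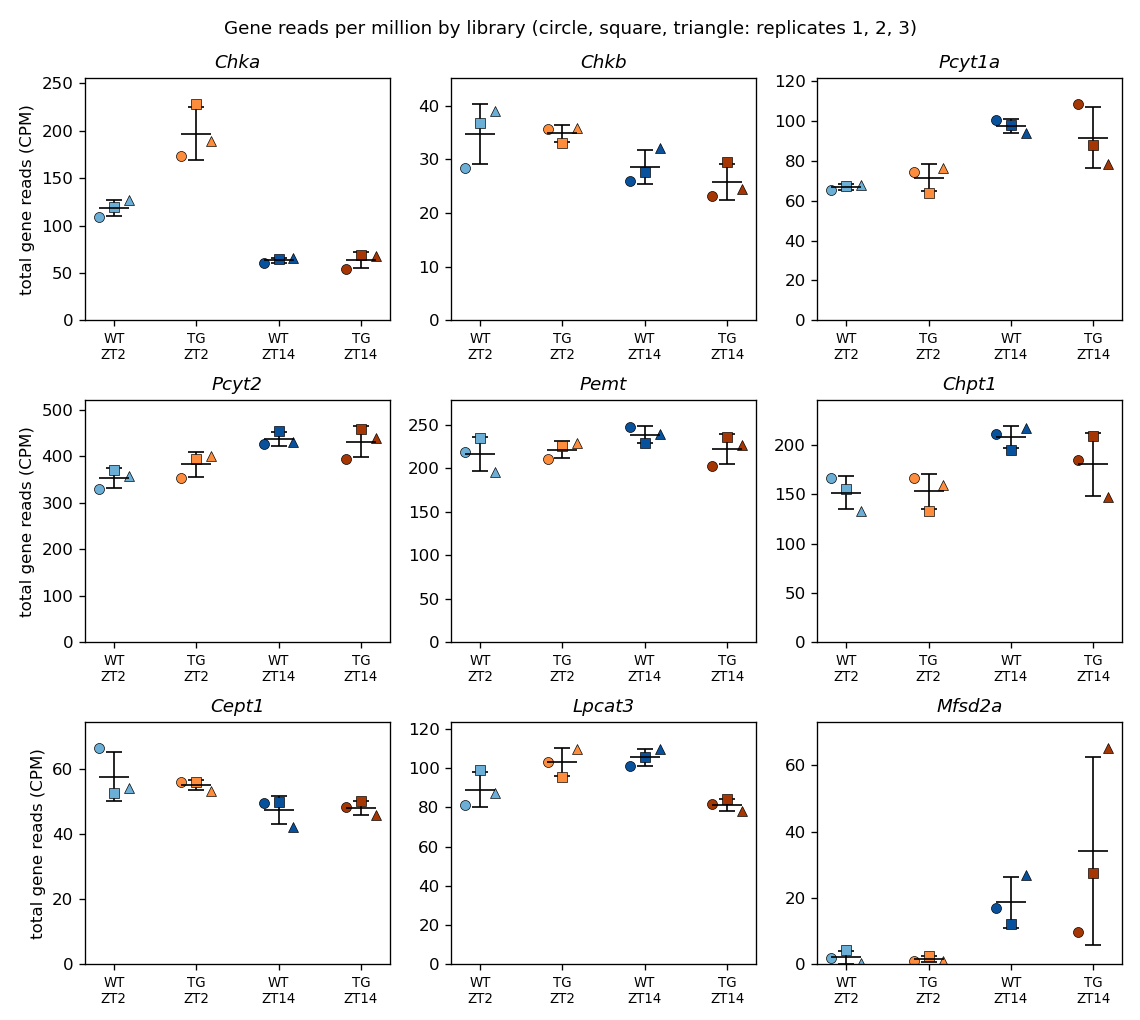
CPM of each of the 9 genes in each library, on axes from 0, with circles, squares and triangles for replicates 1, 2 and 3 and black bars for the mean and SD of each of the 4 groups. Chka lies at 174 to 228 in TG at ZT2 and at 53.8 to 68.5 in TG at ZT14, and Mfsd2a is at most 4.24 at ZT2.

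The activated head groups are made by transferases that use CTP. Pcyt1a (ENSMUSG00000005615, chr16:32430921-32475070, plus strand) encodes the choline enzyme, which sets the rate of the CDP-choline route. It stood at 65.3, 67.1 and 68.0 CPM in WT and 74.2, 63.9 and 76.3 CPM in TG at ZT2. At ZT14 it stood at 100.4, 97.9 and 93.6 CPM in WT and 108, 88.1 and 78.1 CPM in TG. Every library at ZT14 was above every library at ZT2, and the genotypes overlapped at both times. Pcyt1a thus rose at the time when Chka was low: by 1.46-fold in WT (log2 0.54, SE 0.11, adjusted p = 0.00834), and with genotypes averaged by 0.45 on the log2 scale (SE 0.08, adjusted p = 0.00131). In TG alone the difference was 0.36 (SE 0.11, adjusted p = 0.0529), with 0.22 to 0.46 (adjusted p = 0.0158 to 0.204) on leaving out 1 library. The lowest value came without TG at ZT14 replicate 1, and the call was gained without TG at ZT14 replicate 3, but not without both libraries that stood apart (0.37, adjusted p = 0.0559). It was also gained with library size alone (adjusted p = 0.0285), in DESeq2 (0.0357), on exon reads (0.0465) and with no filter beyond 1 read (0.0478). For genotype the intervals ran from -0.12 to 0.32 at ZT2 and from -0.31 to 0.13 at ZT14.

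Pcyt2 (ENSMUSG00000025137, chr11:120610087-120617936, minus strand) encodes the ethanolamine enzyme, which feeds phosphatidylethanolamine and so the substrate of PEMT. It stood at 330 to 371 CPM in WT and 353 to 402 in TG at ZT2, and at 427 to 455 in WT and 395 to 460 in TG at ZT14. The WT time groups did not overlap, and the TG groups did. Averaged over genotypes Pcyt2 was higher at ZT14 (log2 0.24, SE 0.06, adjusted p = 0.0168), and the call was lost without WT at ZT2 replicate 1 (adjusted p = 0.0569) or without TG at ZT2 replicate 1 (adjusted p = 0.0593). In WT alone the difference was 0.31 (SE 0.09, adjusted p = 0.0514), and it was called in DESeq2 (adjusted p = 0.00852), in limma-voom (0.043), with library size alone (0.0381) and without TG at ZT14 replicate 1 (0.038).

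Pemt (ENSMUSG00000000301, chr11:59970614-60046489, minus strand) encodes the methyltransferase that turns phosphatidylethanolamine into phosphatidylcholine. Its 12 libraries lay between 196 and 248 CPM, and the groups overlapped in each comparison. The time difference averaged over genotypes was 0.07 (adjusted p = 0.474) with an interval of 2 SE from -0.06 to 0.20. The genotype intervals ran from -0.15 to 0.21 at ZT2 and from -0.28 to 0.07 at ZT14. Pemt was called in no comparison under any alternative run on total gene reads.

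The terminal step joins the activated head group to diacylglycerol. Chpt1 (ENSMUSG00000060002, chr10:88452745-88504073, minus strand) encodes the cholinephosphotransferase, and Cept1 (ENSMUSG00000040774, chr3:106502260-106547802, minus strand) an enzyme that accepts choline and ethanolamine. Chpt1 stood at 133 to 166 CPM at ZT2 in each genotype, and at 195 to 217 in WT and 147 to 209 in TG at ZT14. Cept1 stood at 52.5 to 66.3 CPM in WT and 53.3 to 56.0 in TG at ZT2, and between 42.3 and 50.2 over both genotypes at ZT14. The genes of the terminal step went opposite ways with time when genotypes were averaged. Chpt1 was then higher at ZT14 by 0.35 on the log2 scale (SE 0.09, adjusted p = 0.0188), and Cept1 was lower, at -0.24 (SE 0.07, adjusted p = 0.0254).

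Neither terminal enzyme kept its call in every fit. For Chpt1 it was lost without TG at ZT2 replicate 2 (log2 0.29, adjusted p = 0.0547). For Cept1 it was lost without WT at ZT14 replicate 3 (adjusted p = 0.0676), without TG at ZT14 replicate 3 (adjusted p = 0.0529) and without both libraries that stood apart (adjusted p = 0.07). Within a genotype, neither was called in the main fit. The adjusted p was 0.0516 in WT and 0.283 in TG for Chpt1, and 0.0941 and 0.232 for Cept1. Under alternatives Chpt1 was called in WT, in DESeq2 (adjusted p = 0.0201), in limma-voom (0.0496) and with library size alone (0.0156). It was also called there with no filter beyond 1 read (0.0245) and with a filter of 1 CPM (0.0499). A fit of the WT libraries gave 0.0249, and leaving out both libraries that stood apart gave 0.014. Leaving out TG at ZT14 replicate 2 or 3 gave 0.039 or 0.0209. Cept1 was called in each genotype when exon reads alone were counted, at -0.34 in WT (adjusted p = 0.0101) and -0.30 in TG (adjusted p = 0.0177). Chpt1 was called on exon reads in WT (adjusted p = 0.0425) and not in TG (0.297). Of Chpt1 reads, 83.8% to 87.0% were uniquely mapped.

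Lpcat3 (ENSMUSG00000004270, chr6:124663027-124704418, plus strand) encodes the acyltransferase that puts polyunsaturated fatty acids back onto lysophosphatidylcholine, the remodelling arm of the Lands cycle in liver. It stood at 81.2, 99.1 and 87.2 CPM in WT and 103, 95.6 and 110 CPM in TG at ZT2. At ZT14 it stood at 101, 106 and 110 CPM in WT and 81.6, 84.3 and 78.3 CPM in TG. At ZT14 every TG library lay below every WT library, while at ZT2 the genotypes overlapped. From ZT2 to ZT14 the WT libraries moved up without overlap, as for 15.3% of all genes. The TG libraries moved down without overlap, as for 14.3%, and the share of genes that did both was not counted. At ZT14 6.32% of all genes were lower in TG without overlap.

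The tests of these Lpcat3 differences did not all pass. In TG it was lower at ZT14 (log2 -0.34, SE 0.09, adjusted p = 0.0238), a call lost in 4 of the 12 fits that each left out 1 library and without both libraries that stood apart (log2 -0.38, adjusted p = 0.0532). The 4 were those without TG at ZT2 replicates 1 or 3, or TG at ZT14 replicates 1 or 3, with adjusted p-values of 0.0593 to 0.0995. In WT the difference was 0.24 (SE 0.09, adjusted p = 0.105), and without WT at ZT2 replicate 2 it was 0.33 (adjusted p = 0.0449). For genotype it was 0.21 at ZT2 (adjusted p = 0.63) and -0.38 at ZT14 (SE 0.09, adjusted p = 0.292), and DESeq2 gave an adjusted p of 0.0287 at ZT14. The interaction was -0.58 (SE 0.12, adjusted p = 0.458) at rank 14 of 15244, and DESeq2 gave an adjusted p of 0.0135. The summed CPM of 5 erythroid genes, all 5 detected, was 238 to 270 in WT and 291 to 414 in TG at ZT14, and its part in the Lpcat3 difference was not tested. Lpcat3 overlaps Emg1 on the other strand by 334 bases.

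Mfsd2a (ENSMUSG00000028655, chr4:122946850-122961188, minus strand) encodes a sodium-dependent carrier of lysophosphatidylcholine, known for moving docosahexaenoic acid in that form into the brain. It had the largest time difference of the 9 genes. At ZT2 it stood at 1.79, 4.24 and 0.414 CPM in WT and 1.10, 2.64 and 1.18 CPM in TG, on 8 to 67 reads. At ZT14 it stood at 17.0, 12.1 and 27.0 CPM in WT and 9.63, 27.6 and 65.0 CPM in TG, on 215 to 1636 reads. Every library at ZT14 lay above every library at ZT2, and the genotypes overlapped at each time. The difference was 9.05-fold in WT (log2 3.18, SE 0.73, adjusted p = 0.0168) and 20.7-fold in TG (log2 4.37, SE 0.76, adjusted p = 0.00291).

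Libraries of 1 group differed widely in Mfsd2a, which sets how firmly its size is known. The WT call was lost without WT at ZT2 replicate 1 (log2 3.06, adjusted p = 0.0761), without WT at ZT2 replicate 3 (2.67, adjusted p = 0.0601), without WT at ZT14 replicate 3 (2.81, adjusted p = 0.0583) and in limma-voom (3.63, adjusted p = 0.0929). Without WT at ZT2 replicate 2 the WT difference was 4.05, with the call kept. In TG the adjusted p stayed below 0.05 in each alternative run on total gene reads and in the fit of exon reads, at 3.50 to 4.88, the lowest being without TG at ZT14 replicate 3 and the highest without TG at ZT2 replicate 2. For genotype at ZT14 the difference was 0.87 (SE 0.59, adjusted p = 0.786), with an interval from -0.31 to 2.05. Without both libraries that stood apart, among them TG at ZT14 replicate 3 with 65.0 CPM, it was -0.0088. The interaction interval, from -0.95 to 3.34, holds no difference as well as a large one.

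Reads in introns come largely from RNA that is not yet spliced, and were counted apart from exon reads. Averaged over genotypes, 7 of the 9 genes were called for time on exon reads, beside 25% of the genes tested so, and 3 on intron reads, beside 11.3%. The 3 were Chka at -1.09 (SE 0.14, adjusted p = 0.000291), Chpt1 at 0.57 (adjusted p = 0.0447) and Mfsd2a at 3.69 (SE 0.80, adjusted p = 0.00827). Chka and Mfsd2a thus moved the same way in exons, at -1.40 and 3.82, as in introns. On exon reads 5 of the 9 were called for time in WT (11.1% of genes) and 6 in TG (13.5%), and on intron reads 0 in WT (1.93%) and 2 in TG (5.64%), with 6 and 3 at an unadjusted p below 0.05. For genotype 0 were called on exon reads at ZT2 (0.0683%) and ZT14 (0.091%), with 1 at an unadjusted p below 0.05 at each time. On intron reads 0 were called at ZT2 (0.0242%) and ZT14 (0.0323%), with 2 and 1. For the interaction 0 were called on exon reads (0.00758%) or intron reads (0.0162%), with 2 at an unadjusted p below 0.05 in each. The difference between the exon and the intron change was called by limma for 0 of 9 for time in WT (0.946%), in TG (2.53%) and averaged (6.07%). At an unadjusted p below 0.05 there were 2 in WT, 0 in TG and 2 in the average, the last being Chka and Chkb. The shares in brackets are of adjusted calls. For exon reads, intron reads and their difference, the share of all genes at an unadjusted p below 0.05 is not given here. The counts at that rule therefore have nothing to be judged against.

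The intron share differed between the genes. The intron share of Chka reads was 27.0% to 41.2% by library, that of Cept1 16.0% to 30.4%, that of Lpcat3 10.7% to 20.1% and that of Pcyt1a 2.11% to 3.58%. For Mfsd2a it was 10.4% to 47.8% at ZT2, on 8 to 67 reads. For Mfsd2a at ZT14 it ran from 9.30% in TG replicate 1 (Wilson 95% interval 6.10% to 13.9%) to 39.7% in TG replicate 3 (37.4% to 42.1%), and the intervals cover counting error only. Lpcat3 intron reads, scaled to the total of intron reads, were at 92.1 to 125 CPM in WT and 152 to 196 in TG at ZT2, without overlap. The share of all genes that separate so on intron reads was not counted. That intron difference was 0.71 (SE 0.17, adjusted p = 0.233), beside 0.13 on exon reads. Between the exon and the intron change for genotype at ZT2, limma called no difference for Lpcat3.

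**Figure D3:**
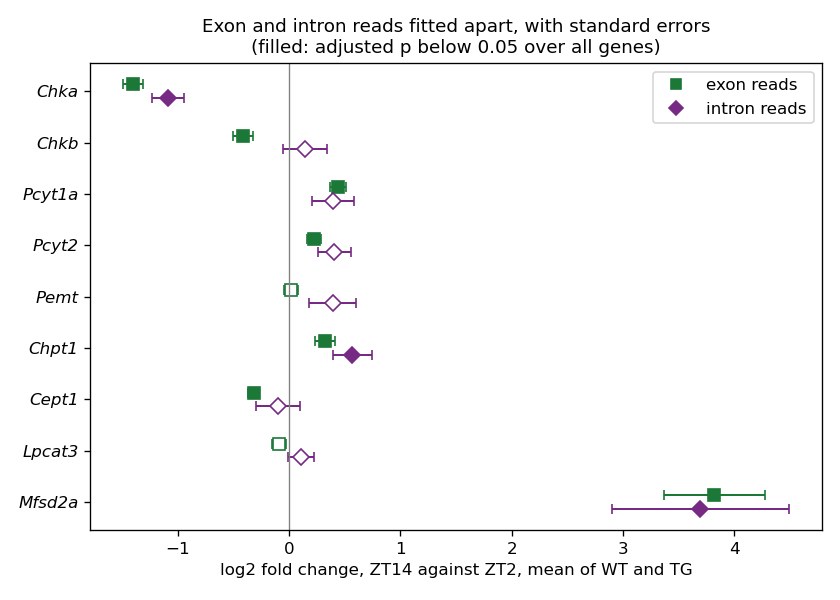
Log2 difference of ZT14 against ZT2, averaged over genotypes, on the horizontal axis for exon reads (squares) and intron reads (diamonds) of the 9 genes, with bars of 1 standard error and filled symbols where the adjusted p was below 0.05. Chka lies at -1.40 and -1.09 and Mfsd2a at 3.82 and 3.69.

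Compared per length by deposited TPM, the mean levels over the 12 libraries were 223 for Pemt, 208 for Pcyt2, 56.8 for Lpcat3, 46.7 for Chpt1, 32.6 for Pcyt1a, 29.7 for Cept1, 13.9 for Chka, 11.5 for Chkb and 10.8 for Mfsd2a. Pemt and Pcyt2 overlapped in 3 of the 4 groups and were not distinct there, and Pcyt2 was above Lpcat3 in every group. Pcyt1a was below Cept1 in both groups at ZT2 and above it in both groups at ZT14. Mfsd2a was below Chkb in both groups at ZT2, and the ranges overlapped at ZT14. With the length of the principal transcript in place of all exon bases, a choice made after the data were seen, 8 of the 9 took another rank and Chka moved from rank 7 to rank 5.

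**Figure D4:**
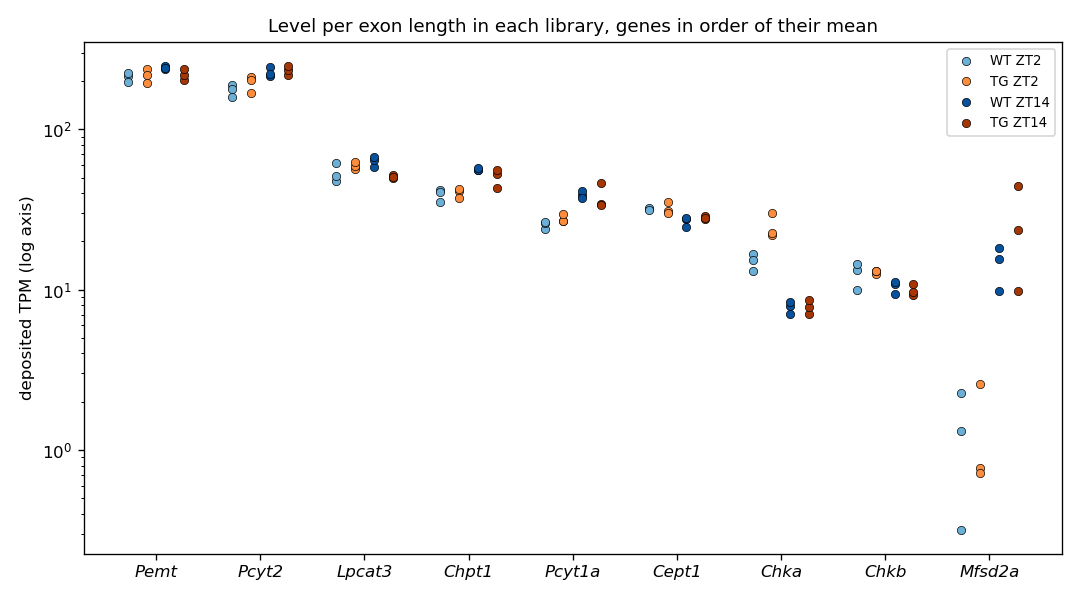
Deposited TPM of the 9 genes in each library on a log axis, with points coloured by group and the genes ordered by their mean. Pemt and Pcyt2 lead at 223 and 208 TPM on average, and Mfsd2a spans 0.315 to 44.5 TPM.

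Genes whose course over the 12 libraries was most like that of a called gene were found by the mean absolute difference of log2 CPM, each gene centred on its own mean, among 9339 genes. For Chka they included Grk5 (0.16) and Rnf144a (0.17), against a mean deviation of Chka itself of 0.63. For Mfsd2a they were Noct (0.45), a clock-linked gene with a strong rhythm in liver, the clock repressor Per1 (0.60) and Tsku (0.86), against 1.87 for Mfsd2a itself. For Lpcat3 they were Chd2 (0.048), Dock8 (0.066) and Git1 (0.078), against 0.16. For Pcyt1a they were Pcyox1 (0.055), Ywhag (0.063) and Xpot (0.074), against 0.23. All values share the same libraries and are a description.

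The other genes of the route were taken from 3 lists, named here by supply, remodelling and transfer. Of 17 tested genes of choline and ethanolamine supply, 2 were higher and 4 lower at ZT14 with genotypes averaged, where 12% of all genes were called higher and 10.4% lower. Lpin1, a phosphatidate phosphatase that makes diacylglycerol, was higher (log2 1.53, SE 0.27, adjusted p = 0.00152), and so was the ethanolamine kinase Etnk2 (0.64, adjusted p = 0.000897). Phospho1, a phosphatase of phosphocholine and phosphoethanolamine, was lower (-2.16, SE 0.24, adjusted p = 5.51e-05), as were the ethanolaminephosphotransferase Ept1 (-0.46), the choline transporter Slc44a1 (-0.42) and Lpin3 (-0.49). The median log2 difference of the 17 was 0.12, against 0.00113 over all genes.

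Of 25 tested genes of lysolipid remodelling and phosphatidylcholine turnover, 6 were higher and 4 lower at ZT14, beside the same 12% and 10.4% of all genes. The glycerophosphodiesterase Gde1 rose in both genotypes, by 1.07 in WT and 1.17 in TG, from 38.2 CPM ± 1.02 (SD, n = 3) to 80.1 ± 4.20 in WT. The lysophospholipases Pnpla6 and Pnpla7 went opposite ways, at 0.55 (adjusted p = 3.52e-05) and -0.40 (adjusted p = 0.00123). Lpgat1, a lysophospholipid acyltransferase, was higher (0.53), and Pla2g12b (-0.82) and the phospholipase D gene Pld1 (-0.90) were lower. The median of the 25 was 0.03.

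Of 9 tested genes of phospholipid transfer and export, 1 was higher and 2 lower at ZT14, again beside 12% and 10.4% of all genes. Abcb4, the canalicular exporter of phosphatidylcholine into bile, was lower (-0.36, SE 0.10, adjusted p = 0.0241), as was the flippase Atp8b1 (-0.27, adjusted p = 0.0249). Mfsd2b, a carrier of sphingosine-1-phosphate, was higher (0.92, adjusted p = 0.0205) at a level of 0.289 to 1.61 CPM. The median of the 9 was -0.07. Across the 3 lists, 0 genes were called for genotype at ZT2, at ZT14 or averaged over the times, or for the interaction, by edgeR, DESeq2 or limma-voom. At an unadjusted p below 0.05 edgeR had 0 supply, 2 remodelling and 0 transfer genes at ZT2, beside 7.56% of all genes, and 2, 3 and 0 at ZT14, beside 6.91%. Averaged over the times it had 0, 4 and 0 genes of the 3 lists in that order, beside 8.82%, and for the interaction 1, 2 and 0, beside 5.98%.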

How the data were processed

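Poly(A) RNA of mouse liver was sequenced in 12 libraries, and the authors deposited 1 table per library. Per the file headers, each held read counts for genes, exons and introns, and TPM and RPKM values. The submitters' processing notes name GRCm38 and mm10. The sources used here do not give the aligner, its handling of reads with several positions or the use of strand; a read shared by overlapping or similar genes could move the counts of those genes. Coordinates are those of the deposited tables.

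The deposited total gene counts (exon plus intron) were analysed in edgeR 4.0.16 under R 4.3.3: genes were kept by filterByExpr (minimum count 10, minimum total 15; 15244 genes), libraries scaled by TMM, and 1 quasi-likelihood model fitted to all 12 libraries in 4 groups. Adjusted p-values are Benjamini-Hochberg over all genes tested in a comparison, with a threshold of 0.05. CPM values are after TMM. Exon and intron counts were fitted in the same way, and their log2 ratio, with 0.5 CPM added, by limma 3.58.1. Deposited TPM and RPKM values served to order levels and were not tested. The scripts were tested on simulated data. Alternatives were DESeq2 1.42.0, limma-voom, other scalings, filters and read classes, a replicate block, a threshold of 0.01 and leaving out libraries. Libraries of a group differed beyond sampling noise (chi-square over degrees of freedom, 9.85 to 90.9), so none was treated as a repeat of another.

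The genes, the lists and the rule for named genes were chosen with earlier results of these data known. The rule takes the 9 genes, Nfil3, overlapping genes, up to 6 genes per list with the smallest p for time averaged over genotypes, and the 3 genes most like each called gene among those of at least 5 CPM on average; the text names fewer. Rps6ka4 is named outside it, for its position.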

Additional observations from a re-analysis of the deposited data

Results flagged for a closer look

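Lpcat3 is the 1 result to look at again: its time difference had opposite signs in the genotypes, with no overlap of libraries in either. It was 0.24 in WT and -0.34 in TG on the log2 scale. The test of that difference itself, the interaction, gave -0.58 (SE 0.12), with an adjusted p of 0.458 by edgeR and 0.0135 by DESeq2. Over the alternatives it ran from -0.67 to -0.50.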

How the results depend on the processing

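No alternative reversed a called direction. Of 4424 recomputed single-gene values, 4280 stayed the same, 100 lost the call, 30 gained it and 14 uncalled values moved. Staying the same means an unchanged call and, where called, an unchanged direction. Uncalled values that changed sign by less than their SE are among the 4280. Of the counts of called genes, that for genotype at ZT2 went from 1 to 0 at a threshold of 0.01, with library size alone, with a filter of 1 CPM, in limma-voom, on exon reads, in the fit of 6 libraries and without both libraries apart, and was 0 to 1 on leaving out 1 library. That at ZT14 went from 0 to 1 in DESeq2 (0 to 0 without 1 library). For time in WT, 3 became 5 with library size alone, in DESeq2 and on exon reads (2 to 4 without 1 library). For time in TG, 4 became 2 at 0.01 and without both libraries apart (2 to 4 without 1 library). DESeq2 called 2 for the interaction and 1 for genotype averaged, in place of 0. Averaged time went from 7 to 3 at 0.01 (6 to 7 without 1 library). On intron reads, leaving the filter at 1 read raised 0 to 1 for genotype at ZT14 and the interaction and 0 to 2 for time in WT (0 to 2 without 1 library). Time in TG went from 2 to 1 at 0.01 and without both libraries apart (1 to 2 without 1 library), and averaged time stood at 3 (2 to 4 without 1 library). On exon reads, genotype at ZT2 went from 0 to 1 without the filter and with a replicate block. Exon time in WT went from 5 to 3 at 0.01 (4 to 6 without 1 library), and in TG from 6 to 2 at 0.01 and without both libraries apart (2 to 5 without 1 library). The rank order changed for 8 genes with the principal transcript length and for 0 with RPKM. The causes were not tested.

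Correlations between the deviations of same-numbered libraries ran from -0.30 to 0.18, and those between other numbers from -0.31 to 0.49. With 3 libraries per group, these values cannot show whether the numbers pair anything. The replicate block called Pcyt2 for time in WT (adjusted p = 0.0335), and the count for genotype at ZT2 stayed at 1. With library size alone the median log2 difference of all genes was at most 0.064, for time in WT, where the main fit gave 0.0051. Mfsd2a at ZT2 rests on 8 to 67 reads, which limits its fold.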
